A study of Mus musculus with 4 samples.

Results

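The Notch pathway core comprised 10 genes in the RNA of cultured mouse pancreatic ductal cells: the ligand genes Jag1 and Jag2, the receptor genes Notch1, Notch2 and Notch3, the glycosyltransferase gene Lfng, the DNA-binding factor gene Rbpj, and the target genes Hes1, Hey1 and Nrarp. They were chosen by name from the 22869 gene symbols of the deposited tables, in which they filled 12 of 28644 transcript lines, and the line with the highest mean count stands for each gene. The libraries labelled Hhex knockout (n = 2) came from ductal cells of C57BL/6 mice with the genotype Sox9CreER;HhexL/L, in which the Sox9 promoter drives a tamoxifen-inducible Cre and both Hhex alleles are floxed. The control libraries (n = 2) came from HhexL/L littermates without the Cre. The donors were adults that had not been induced, and both groups of cultured cells received 500 nM 4-hydroxytamoxifen for 4 days. No group carried the Cre without floxed alleles, so loss of Hhex and the presence of the Cre cannot be told apart.

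Notch receptors bind ligands of the Jagged and Delta-like families on neighbouring cells. Binding leads to cleavage by an ADAM protease and then by gamma-secretase, and the freed intracellular domain joins RBPJ and Mastermind proteins on DNA to switch on genes of the HES and HEY families and Nrarp. In the pancreas the pathway is known for restraining endocrine and acinar differentiation of progenitors and for a part in the ductal lineage, where Hes1 is a ductal and centroacinar gene.

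The libraries held 25257778 to 39582625 counts over all transcript lines, and 18638815 to 29137636 with 1 line per gene. The targeted homeobox gene Hhex had 23.6 and 39.0 CPM in the libraries labelled knockout, against 24.8 and 17.7 CPM in the controls, where CPM is the count scaled by edgeR's TMM library size. Hhex was therefore not lower, and the group is called by its label throughout. The labels do not say which part of Hhex is floxed, and its remaining exons could still give counts. The 10 ductal markers summed to 16764 and 13504 CPM in the libraries labelled knockout and to 12874 and 15355 CPM in the controls, and each was detected in every library. Most of that sum was Krt18 and Krt8, and single markers differed in opposite directions without overlap. Sox9 had 52.3 and 44.3 CPM in the libraries labelled knockout, against 18.0 and 21.4 CPM in the controls (edgeR adjusted p = 0.0521), and Cftr had 13.1 and 22.9 CPM, against 33.6 and 35.1 CPM in the controls (edgeR adjusted p = 0.380). The 9 fibroblast, 8 endothelial, 6 macrophage, 8 acinar and 7 endocrine markers each summed to at most 18.3 CPM in any library. Replicate 2 of the labelled knockouts had 304 CPM of Xist, against 0.750 to 1.75 CPM in the other libraries, and at most 0.548 CPM of any of 4 Y-linked genes, so it was the only female library.

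Promoter sequence was at hand in RefSeq (assembly GRCm38.p6) for 8 of the 10 genes, all but Hes1 and Hey1. The 250 bases before the start site are shown for Jag1, the gene with the smallest p, for the target gene Nrarp, and for Lfng, whose levels differed most between the libraries labelled knockout among the 8. Capitals mark CGTGGGAA, the sequence that RBPJ prefers, searched on both strands (TTCCCACG on the other).
Jag1, chr2:137116521-137116770, minus strand: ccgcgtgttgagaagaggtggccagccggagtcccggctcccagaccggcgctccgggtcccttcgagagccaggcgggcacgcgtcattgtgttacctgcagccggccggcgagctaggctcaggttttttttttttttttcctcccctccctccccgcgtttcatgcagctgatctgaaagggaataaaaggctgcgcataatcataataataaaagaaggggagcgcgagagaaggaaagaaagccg
Nrarp, chr2:25180508-25180757, plus strand: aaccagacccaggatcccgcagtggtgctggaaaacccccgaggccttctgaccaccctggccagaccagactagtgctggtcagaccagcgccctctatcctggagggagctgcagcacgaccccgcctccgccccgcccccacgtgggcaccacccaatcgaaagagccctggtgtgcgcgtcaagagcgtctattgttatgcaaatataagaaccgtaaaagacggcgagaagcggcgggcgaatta
Lfng, chr5:140607091-140607340, plus strand: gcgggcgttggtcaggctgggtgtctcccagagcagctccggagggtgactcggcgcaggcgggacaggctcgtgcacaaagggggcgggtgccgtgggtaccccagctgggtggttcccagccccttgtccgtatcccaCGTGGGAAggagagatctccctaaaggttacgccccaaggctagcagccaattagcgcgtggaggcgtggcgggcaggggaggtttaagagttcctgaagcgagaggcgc
Lfng held the 8 letters once, 110 to 103 bases before its start, and the other 7 genes with sequence did not hold them in this window. Of all 32851 windows of this length 0.636% held them. The shorter core TGGGAA, which is part of the longer motif, occurred before Lfng and Rbpj and in 21.6% of all windows.

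None of the 10 genes passed the threshold. Jag1 had the largest positive fold change and Hey1 the largest negative one. With edgeR's quasi-likelihood test, 0 of 10 had an adjusted p under 0.05, against 0.177% of the 20949 transcripts tested, and all 10 passed the filter on low counts. At an unadjusted p under 0.05 there was 1 of 10, Jag1, against 7.47% of all transcripts. The median absolute log2 fold change was 0.17 over the 10 genes and 0.20 over all transcripts tested. In scaled CPM both libraries labelled knockout lay above both controls for 2 of the 10, Jag1 and Notch3, against 19.1% of all transcripts. Both lay below for another 2, Hes1 and Hey1, against 17% of all transcripts. These shares are near the background. When labelled knockout replicate 1 was left out, so that a single library stood for the group, 1 of 10 passed, Jag1, against 7.58% of all transcripts in that fit. When replicate 2 was left out, 2 of 10 passed, Hes1 and Lfng, against 7.89% of all transcripts. In the fit without replicate 1 the group was the only female library, so sex and label cannot be told apart there. With 2 libraries a side, an exact two-sided permutation test of a single value cannot give a p below 0.333, and no such test was run. In the RefSeq annotation (GRCm38) the gene 0610009E02Rik overlaps Notch1, Gm40103 overlaps Notch2, Gm38585 and Gm41568 overlap Notch3, and LOC115489673 overlaps Hey1, so those counts are uncertain where reads of a neighbour were included. In these bulk cultures fewer cells of a type and less RNA per cell cannot be told apart.

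**Figure D1:**
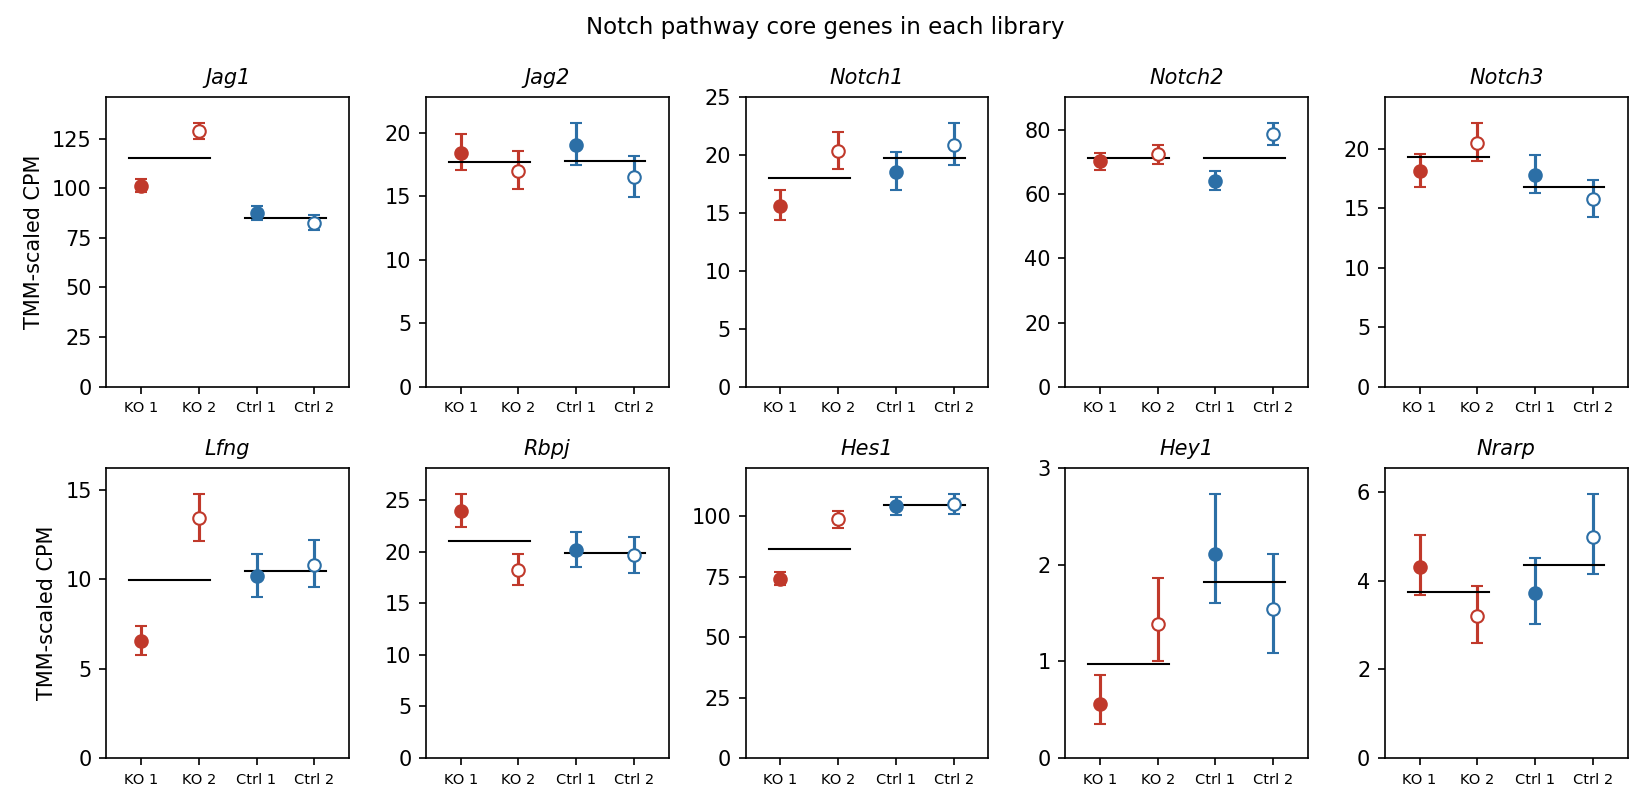
Level of each gene in each library in TMM-scaled CPM on a linear axis from 0, with the libraries labelled knockout (KO, red) left of the controls (Ctrl, blue), filled points for replicate 1 and open points for replicate 2. Error bars are exact 95% Poisson intervals, which cover counting error only, and black lines are group means; the red Jag1 points, 101 and 129 CPM, lie above both controls, and those of Lfng, 6.54 and 13.4 CPM, lie on either side of both.

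Among the ligands, Jag1, whose protein is needed for bile duct formation, was the member nearest to a call. It had 101 and 129 CPM in the libraries labelled knockout, against 87.5 and 82.6 CPM in the controls. Both libraries labelled knockout were above both controls, and replicate 2 was the higher of them. The fold change was 1.35, a log2 value of 0.43 ± 0.17 (SE) with a 95% interval of 0.034 to 0.84, an unadjusted p of 0.0372 and an edgeR adjusted p of 0.612. The 2 labelled knockout libraries differed by 1.27-fold between themselves and the controls by 1.06-fold. Without labelled knockout replicate 1, the group was a single library, the female one, and the log2 fold change was 0.57. Without replicate 2 it was 0.23.

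Jag2, the other Jagged ligand, had 18.5 and 17.0 CPM in the libraries labelled knockout, against 19.1 and 16.5 CPM in the controls. The groups overlapped, with both extremes in the controls. Its log2 fold change was -0.0044 (95% interval -0.40 to 0.39, edgeR adjusted p = 0.997). The make-up of the ligand family by RPKM, the authors' measure per length of transcript and depth, does not depend on the scaling of a library. Jag1 made up 75.0% and 79.4% of the summed RPKM of Jag1, Jag2, Dll1, Dll3 and Dll4 in the libraries labelled knockout, against 73.6% and 73.4% in the controls. The ratio of Jag1 to Jag2 RPKM was 4.04 and 5.58 in the libraries labelled knockout and 3.38 and 3.70 in the controls. Jag1 was thus the most abundant ligand transcript per length in all 4 libraries. Its share did not overlap between the groups, and in CPM the groups did not overlap for 36.1% of all transcripts tested. The share and the ratio draw on the same Jag1 measurements as above, so they are not separate results, and neither was tested.

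Of the receptors, Notch2 was the most abundant per length. It had 70.2 and 72.4 CPM in the libraries labelled knockout, against 64.2 and 78.7 CPM in the controls, which lay on either side of them. On the log2 scale the fold change was -0.0018 (95% interval -0.37 to 0.37, edgeR adjusted p = 0.999). By RPKM it made up 60.4% and 56.5% of the sum of Notch1 to Notch4 in the libraries labelled knockout, against 54.2% and 61.1% in the controls.

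Notch1 encodes the receptor best known from T cell development. It had 15.6 and 20.4 CPM in the libraries labelled knockout and 18.6 and 20.9 CPM in the controls. Labelled knockout replicate 1 was the lowest of the 4, and replicate 2 lay between the controls. Its log2 fold change was -0.13 ± 0.19 (SE; edgeR adjusted p = 0.958).

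Notch3, a receptor known from smooth muscle and pericytes, had 18.2 and 20.5 CPM in the libraries labelled knockout, against 17.9 and 15.8 CPM in the controls. Both were above both controls, replicate 1 by a small margin, and with library totals or upper-quartile factors in place of TMM the groups overlapped. The log2 fold change was 0.20 ± 0.17 (SE; edgeR adjusted p = 0.921). The ratio of Notch3 to Notch1 RPKM, chosen after its values were seen, was 1.39 and 1.20 in the libraries labelled knockout and 1.15 and 0.901 in the controls. The summed RPKM of the 4 receptors was 8.77 and 9.18 in the libraries labelled knockout and 7.98 and 9.37 in the controls, so the receptor total overlapped.

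**Figure D2:**
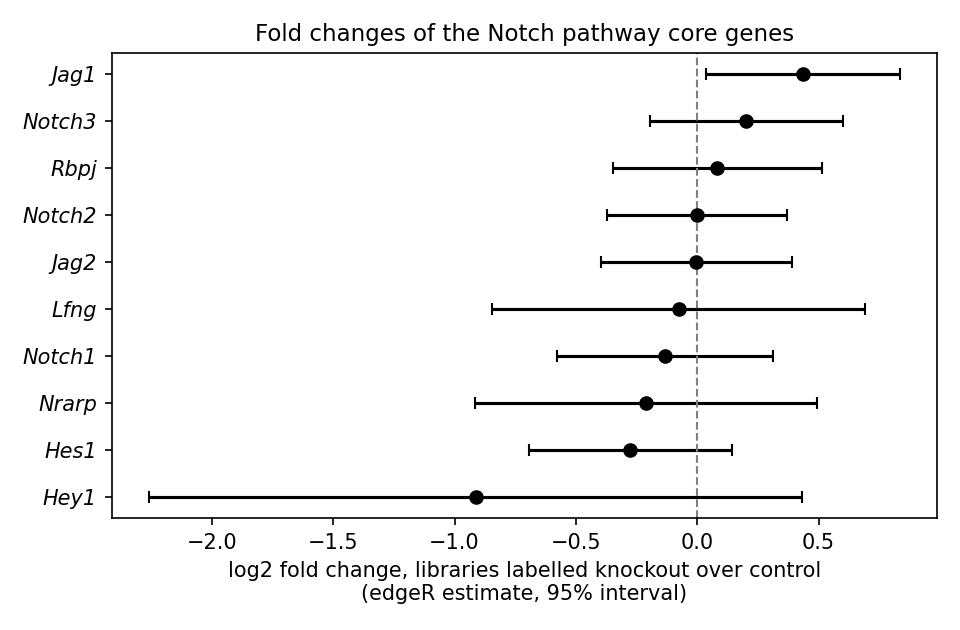
Log2 fold changes (x axis) of the 10 genes, libraries labelled knockout over controls, as points with 95% intervals from edgeR, ordered by value. The interval of Jag1, 0.034 to 0.84, lies above 0 and the other 9 include 0; that of Hey1 is the widest, and no gene passed after adjustment over all transcripts tested.

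Lfng encodes lunatic fringe, which adds a sugar to the receptors and changes which ligands they answer to. It had 6.54 and 13.4 CPM in the libraries labelled knockout, against 10.2 and 10.8 CPM in the controls. Replicate 1 was thus the lowest and replicate 2 the highest of the 4, with both controls between them. The libraries labelled knockout differed by 2.05-fold between themselves, the controls by 1.06-fold. Over both libraries the log2 fold change was -0.076 ± 0.33 (SE; edgeR adjusted p = 0.983). It was -0.70 without labelled knockout replicate 2 and 0.33 without replicate 1, which left only the female library in the group. Lfng therefore had no group difference that both libraries shared, and a link between its promoter motif and its level was not tested. By RPKM it made up 65.9% and 80.0% of the 3 fringe genes in the libraries labelled knockout, against 70.8% and 80.2% in the controls.

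Rbpj encodes the DNA-binding partner of the cleaved receptors. It had 23.9 and 18.2 CPM in the libraries labelled knockout, against 20.2 and 19.6 CPM in the controls. As for Lfng, the controls lay between the libraries labelled knockout, here with replicate 1 the highest. The log2 fold change was 0.083 ± 0.18 (SE; edgeR adjusted p = 0.971). Its 3 deposited transcripts differed by at most 2 counts in any library, so they carry the same measurement. The counts are uncertain to the extent that reads were shared with the pseudogenes Rbpj-ps1, Rbpj-ps2 and Rbpj-ps3.

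Of the targets, Hes1, which encodes a repressor of the basic helix-loop-helix class, was the most abundant of the 10 genes per length. It had 74.2 and 98.7 CPM in the libraries labelled knockout, against 104.3 and 105 CPM in the controls. Replicate 1 stood well below the other 3 libraries and replicate 2 just below the controls. This gave a log2 fold change of -0.28 ± 0.18 (SE; 95% interval -0.69 to 0.14, edgeR adjusted p = 0.856). By the authors' RPKM it stood at 40.5 and 51.2 in the libraries labelled knockout and at 50.9 and 55.4 in the controls, so that replicate 2 overlapped with control replicate 1. Without labelled knockout replicate 2 the log2 fold change was -0.51. Without replicate 1, which left only the female library in the group, it was -0.11.

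Hes1 and Jag1 went in opposite directions, and their ratio within a library is free of library scaling. Chosen after its values were seen, the ratio of Hes1 to Jag1 RPKM was 2.78 and 2.90 in the libraries labelled knockout, against 4.51 and 4.81 in the controls. Because Hes1 lay below and Jag1 above both controls in CPM, this ratio could not overlap between the groups. No test was made of this ratio.

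Hey1, a relative of Hes1 that acts with Notch in blood vessels and heart, was the least abundant member. Its raw counts were 21 and 43 in the libraries labelled knockout and 58 and 38 in the controls, which gave 0.563 and 1.39 CPM against 2.11 and 1.54 CPM. Both were below both controls in CPM, but the 95% Poisson interval of replicate 2, 1.00 to 1.87 CPM, included the value of control replicate 2. The fitted log2 fold change was -0.91 ± 0.57 (SE; 95% interval -2.26 to 0.43, edgeR adjusted p = 0.844). The 8 endothelial markers summed to 3.62 and 8.58 CPM in the libraries labelled knockout and to 12.2 and 4.30 CPM in the controls, with Emcn at 0 in control replicate 2. Hey1 and this sum were both lowest in labelled knockout replicate 1 and highest in control replicate 1. Labelled knockout replicate 2 was above control replicate 2 in this sum but below it in Hey1. The fibroblast and acinar marker sums had the same lowest and highest library as Hey1. For fibroblast markers they were 5.01 and 8.39 CPM in the libraries labelled knockout and 13.8 and 8.68 CPM in the controls. The part of RNA from any of these cell types in the Hey1 level was not tested.

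Nrarp, a small ankyrin-repeat protein gene that feeds back on the Notch complex, had 4.31 and 3.19 CPM in the libraries labelled knockout, against 3.72 and 4.99 CPM in the controls. The groups overlapped. Nrarp had a log2 fold change of -0.21 ± 0.30 (SE; edgeR adjusted p = 0.958). The 3 targets therefore did not share a library order: labelled knockout replicate 1 was the lowest for Hes1 and Hey1, and replicate 2 was the lowest for Nrarp.

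Per length, the order of the 10 genes was led by Hes1, Jag1 and Notch2 in each of the 4 libraries. Mean RPKM in the libraries labelled knockout and in the controls was 45.8 and 53.1 for Hes1, 16.1 and 11.4 for Jag1, and 5.24 and 5.03 for Notch2. Jag2, Lfng and Rbpj followed at overlapping levels between 2.27 and 4.42 RPKM over all libraries. Notch3, Notch1 and Nrarp overlapped in turn between 0.933 and 1.95 RPKM, and Hey1 lay at 0.202 to 0.679 RPKM. For 7 of the 10 genes the libraries labelled knockout were further apart from each other than the controls were, Nrarp by a margin of only 1.35-fold against 1.34-fold. The same held for 57.3% of all transcripts tested.

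**Figure D3:**
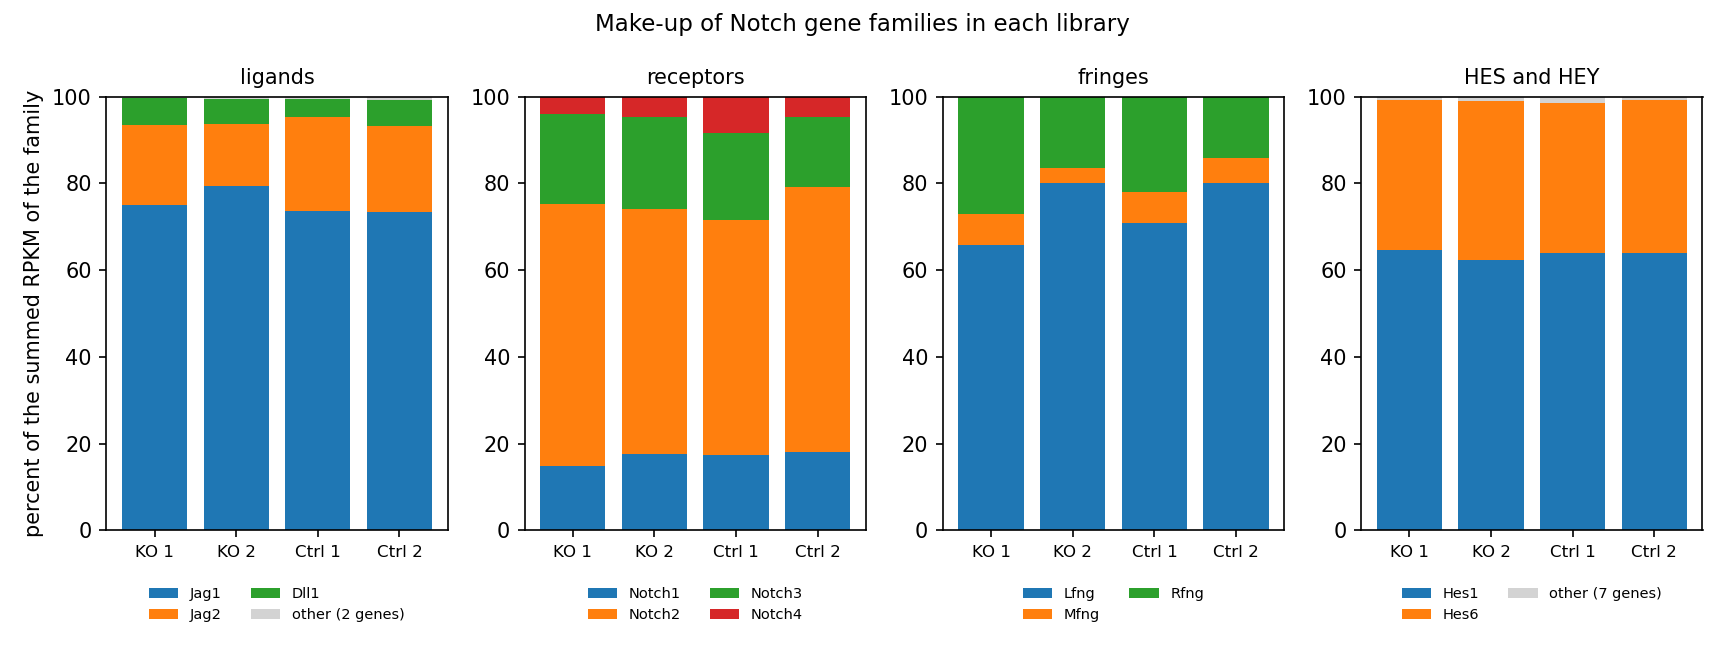
Share of each gene (y axis, percent) in the summed RPKM of its family in each library, for ligands, receptors, fringe genes and the HES and HEY genes, with the libraries labelled knockout (KO) left of the controls (Ctrl). Jag1, Notch2, Lfng and Hes1 made up the largest share of their family in all 4 libraries; grey stands for genes that stayed under 2% in every library.

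The wider pathway was described from a list of 53 further genes in 6 roles, of which 45 passed the filter on low counts. None of the 45 had an edgeR adjusted p under 0.05. At an unadjusted p under 0.05 there were 2 higher, Dlk2 and Numbl, and 1 lower, Dtx3l, which is 6.67% of the 45 against 7.47% of all transcripts. The groups did not overlap for 11 genes that were higher and 9 that were lower, which is 44.4% of the 45 against 36.1% of all transcripts. Without labelled knockout replicate 1 the genes Dlk2, Dtx3l and Dtx4 passed, with edgeR adjusted p of 0.0271, 0.00112 and 0.0123, and without replicate 2 Numbl and Hes6 passed, at 0.0333 and 0.0162. These 3 and 2 calls came in fits that called 7.58% and 7.89% of all transcripts. The fit without replicate 1 set only the female library against the controls, so sex and label cannot be told apart there. In the main fit the median log2 fold change of the 45 was -0.028, against -0.0089 over all transcripts tested.

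Among other ligands and receptors, Dlk2, which encodes a Delta-like protein that is not a classical Notch ligand, had the largest fold change of the list. It had 2.28 and 3.71 CPM in the libraries labelled knockout, against 0.838 and 1.30 CPM in the controls. Both were above both controls, with a log2 fold change of 1.48 ± 0.45 (SE; edgeR adjusted p = 0.438). Dlk2 passed in limma-trend on log2(RPKM + 1) and on log2(RPKM + 0.1), with adjusted p of 0.0432 and 0.0421. Dll1, a classical Delta-like ligand, had 5.12 and 5.84 CPM in the libraries labelled knockout, against 2.99 and 4.05 CPM in the controls (log2 fold change 0.64 ± 0.27 SE; edgeR adjusted p = 0.672). The summed RPKM of the 5 classical ligands was 19.4 and 22.2 in the libraries labelled knockout and 15.3 and 15.7 in the controls, most of it from Jag1. Dll3 and Dll4 had too few counts to be tested. Notch4, a receptor of endothelium, had 3.00 and 3.77 CPM in the libraries labelled knockout, against 6.30 and 3.77 CPM in the controls. Control replicate 1, the highest for Notch4, also had the highest sums of endothelial, fibroblast, acinar and endocrine markers. Labelled knockout replicate 2 and control replicate 2 had the same Notch4 level, with endothelial sums of 8.58 and 4.30 CPM. The part of any of these cell types in the Notch4 level was not tested.

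No gene listed for receptor cleavage or receptor glycosylation had an unadjusted p under 0.05 in edgeR. All 10 cleavage genes were tested, with log2 fold changes between -0.14 and 0.26. Adam10, the main protease of the first cut, had 42.7 and 43.4 CPM in the libraries labelled knockout, against 36.3 and 35.6 CPM in the controls (log2 fold change 0.26 ± 0.13 SE; edgeR adjusted p = 0.766). Adam17, a related protease, had 105.8 and 97.9 CPM against 89.0 and 94.1 CPM in the controls. Ncstn, a gamma-secretase gene, had a log2 fold change of 0.074. Of the glycosyltransferase genes, Pofut1, which adds fucose to the receptors, had a log2 fold change of 0.20, Poglut1, which adds glucose, of -0.035, and Rfng, a fringe, of 0.098.

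Of the 12 genes of ubiquitin transfer and endocytosis tested, 0 were called, 5 had positive and 7 negative log2 fold changes, and the median was -0.018. Numbl, a relative of the Notch inhibitor Numb, had 5.44 and 4.61 CPM in the libraries labelled knockout, against 3.13 and 2.31 CPM in the controls, a log2 fold change of 0.88 ± 0.29 (SE; edgeR adjusted p = 0.496). Dtx3l, of the Deltex family, had 18.4 and 13.6 CPM against 21.4 and 24.6 CPM in the controls, a log2 fold change of -0.52 ± 0.20 (SE; edgeR adjusted p = 0.599). Dtx3, of the same family, had 47.7 and 47.6 CPM against 56.1 and 63.8 CPM in the controls, with a log2 fold change of -0.33. For all 3, which were named for a small p, the groups did not overlap. That held for 9 of the 12 genes, against 36.1% of all transcripts, and the difference was not tested. The ligase genes Mib1, needed for ligand endocytosis, and Itch had log2 fold changes of -0.026 and 0.26.

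Among nuclear cofactors, Maml3, a Mastermind coactivator, had 5.84 and 6.42 CPM in the libraries labelled knockout, against 9.07 and 7.74 CPM in the controls, a log2 fold change of -0.46 ± 0.21 (SE; edgeR adjusted p = 0.722). Cir1, a corepressor of RBPJ, had 1.15 and 1.64 CPM against 2.15 and 2.51 CPM in the controls (log2 fold change -0.74, edgeR adjusted p = 0.786). For both genes, also named for a small p, the groups did not overlap. That held for 2 of the 12 cofactor genes, against 36.1% of all transcripts. The abundant cofactor genes Snw1, Kat2b and Kdm5a had log2 fold changes of 0.021, 0.21 and -0.085.

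Of the other HES and HEY genes, Hes6 alone was abundant. Hes6, known as an antagonist of Hes1, had 36.6 and 53.4 CPM in the libraries labelled knockout, against 51.8 and 53.2 CPM in the controls. Labelled knockout replicate 1 stood below the other 3 libraries, as it did for Hes1, and the ratio of Hes1 to Hes6 RPKM was 1.86 and 1.70 in the libraries labelled knockout and 1.85 and 1.82 in the controls. Hes2 and Heyl had at most 0.510 and 0.947 CPM in any library. Hes3, Hes5, Hes7 and Hey2 had at most 11 counts in any library and were not tested.

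**Figure D4:**
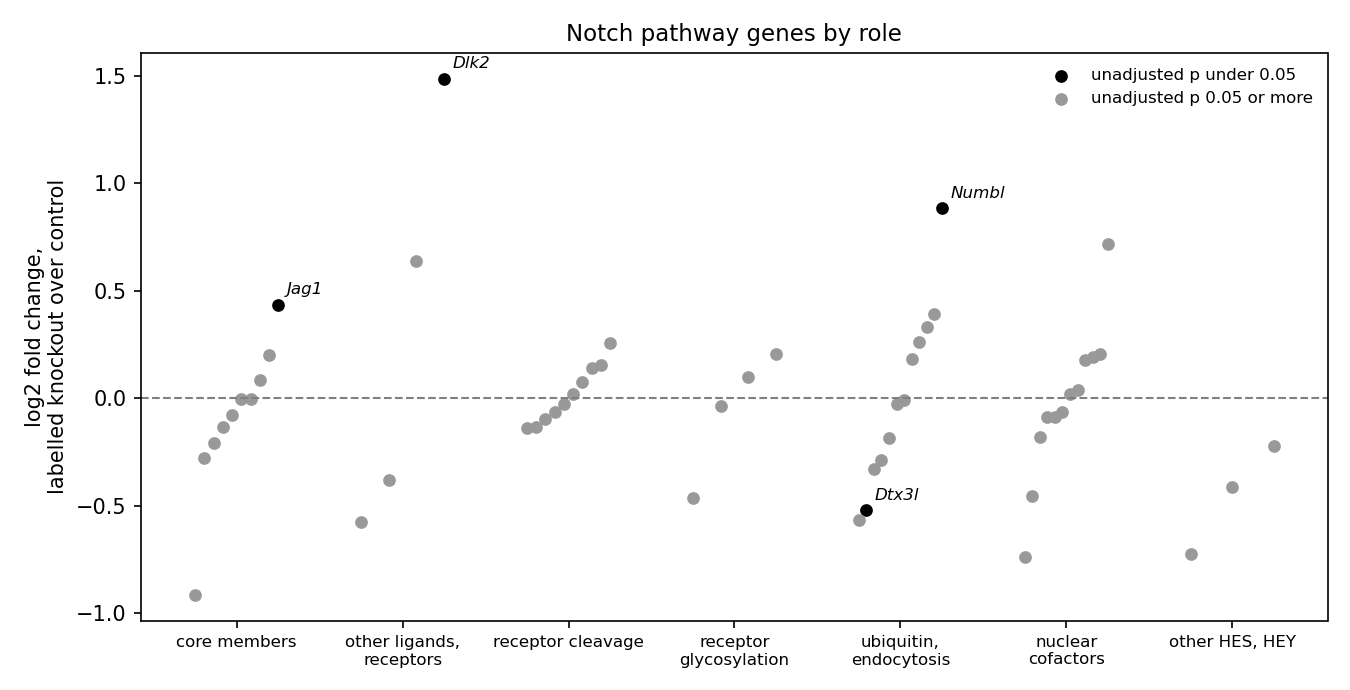
Log2 fold change (y axis), libraries labelled knockout over controls, of each tested gene of the pathway, in columns by role and sorted within each column. Black points have an unadjusted p under 0.05 in edgeR, and these are Jag1, Dlk2, Numbl and Dtx3l; no gene passed after adjustment.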

How the data were processed

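The authors deposited whole-number counts and RPKM values for 28644 RefSeq transcripts in 4 libraries. The submitters' processing notes name the build mm9 and the tool edgeR. How reads were aligned, counted and assigned to a strand is not given in the sources used here.

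Counts as deposited were filtered (filterByExpr, minimum count 10, minimum total 15), scaled by TMM and tested with edgeR 4.0.16 in R 4.3.3 by the quasi-likelihood F test, libraries labelled knockout minus controls, with Benjamini-Hochberg adjustment over 20949 transcripts and a threshold of 0.05. SE is the absolute log2 coefficient before edgeR's shrinkage of the fold change, divided by the square root of F. The deposited RPKM served for levels between genes, and also for family sums and shares, ratios, group means and a second library order of Hes1. Its scaling between libraries differs from TMM. Over all transcripts tested, the median log2 fold change was -0.0089 in the main fit. With limma-trend on log2(RPKM + 1) and log2(RPKM + 0.1) it was 0.033 and 0.052. Alternatives used limma 3.58.1 and DESeq2 1.42.0. The members and lists were chosen with earlier results of these data known. Every member is named, and of the wider list the 4 smallest p in each direction and the 3 most abundant per role. Of the genes this names, 1 is not reported here.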

Additional observations from a re-analysis of the deposited data

How the results depend on the processing

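No paired analysis was possible because the labels number the animals through both groups and give no shared replicate number. No member passed under any of the 13 alternatives that kept every library. The count over all transcripts, 37, was 5 with upper-quartile factors, with library totals and with counts summed per symbol, 2 with 1 transcript per symbol, 4 with at least 1 CPM in 2 libraries, 79 with no filter, 84 with edgeR's robust fit, 270 with its exact test, 303 with DESeq2, and 190 and 221 with limma-trend on log2(RPKM + 1) and log2(RPKM + 0.1), where 1 wider gene, Dlk2, passed. When single libraries were dropped, where a lone library is assumed to vary like the other group, 13 (without control replicate 1) to 1735 (without labelled knockout replicate 2) transcripts, 0 to 2 members and 0 to 3 wider genes passed.

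Some log2 fold changes turned sign. Notch2 was 0.013 with DESeq2, 0.060 and 0.073 with limma-trend, 0.0055 summed per symbol and 0.0023 without X and Y genes. Jag2 was 0.014, 0.052, 0.066 and 0.0044 in the first 4 of these. With a library left out, log2 fold changes ran from -0.35 to 0.021 for Notch1, -0.14 to 0.19 for Notch2, -0.092 to 0.10 for Jag2, -0.47 to 0.053 for Nrarp, -0.70 to 0.33 for Lfng and -0.16 to 0.25 for Rbpj. The causes were not tested. Jag1, Notch3, Hes1 and Hey1 kept their direction in all 17 fits. The number of members whose groups did not overlap was 4, and 3 or 4 on 4 other scales that were added after the data were seen. Depth limits Hey1, with 21 to 58 counts.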
